A study of Mus musculus with 12 samples.

Results

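The vessel wall haemostasis and fibrinolysis genes are 10 genes for proteins that cells of a vein make locally, and they were followed in the inferior vena cava (IVC) after an arteriovenous fistula (AVF). The members were listed by symbol and matched to Ensembl identifiers. They are F3, F8, F13a1 and Vwf (procoagulant factors), Tfpi, Tfpi2, Thbd and Procr (anticoagulants and Kunitz-type inhibitors), and Plat and Plau (plasminogen activators). All 10 were among the 55414 genes of the deposited count table, and all 10 were among the 15912 genes expressed highly enough to be tested. RNA-seq was performed on the IVC of 12 wild-type C57BL/6 mice, operated at an age of 10 weeks and studied on postoperative day 7. The AVF group had 3 female and 3 male mice with an infrarenal aortocaval fistula, made by passing a needle through the aorta into the IVC. The sham group had 3 female and 3 male mice that had the same operation, clamping included, without the puncture. Each mouse gave 1 library from a saline-flushed segment of the IVC, and RNA of all cell types of the segment was pooled. In AVF mice the segment lay between the fistula and the left renal vein. The paper does not state its range in sham mice.

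Haemostasis balances clot formation and clot removal at the vessel wall. Tissue factor starts coagulation when blood meets cells outside the endothelium, factor VIII and von Willebrand factor serve its amplification and the capture of platelets, and factor XIII crosslinks the fibrin that results. Endothelium restrains these steps with tissue factor pathway inhibitor, thrombomodulin and the endothelial protein C receptor, and plasminogen activators turn plasminogen into plasmin, which dissolves fibrin and also cleaves matrix. A vein joined to an artery is exposed to arterial pressure and fast flow, and thrombosis is a known cause of fistula failure.

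Total expected counts ranged from 15177881 to 22717423 per library, and ribosomal RNA took 46.0% of the counts in AVF female 1 and 2.39% to 12.6% in the other libraries. Levels are given as normalized CPM, counts scaled to the total and composition of each library, and 3 counts corresponded to 0.127 to 0.324 normalized CPM. The members had between 87 and 22798 counts in a library, far above that limit. Within each operation, the chi-square per degree of freedom between pairs of libraries was 36.8 to 637, where counting error alone gives about 1. The highest values, 325 to 637, all involved AVF female 1. Spread between libraries, beyond counting error, therefore set the precision. AVF male 2 and AVF female 2 stood apart. Albumin (Alb), a hepatocyte transcript, was at 1853 and 5594 normalized CPM in these 2 libraries and between 0.127 and 2.67 in the other 10, and the study also set these 2 mice apart. Results are therefore given with and without them. A gene passed with an adjusted p under 0.05 in edgeR's quasi-likelihood test with the Benjamini-Hochberg procedure over all tested genes, and a passing gene with a change of at least 2-fold was a differentially expressed gene (DEG).

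Comparing the AVF group with the sham group, 3 of the 10 members passed. Tfpi2 and Plat were higher and F8 was lower in the AVF group. Over all tested genes, 13.8% passed, 8.63% with higher and 5.13% with lower expression. Tfpi2 and F8 were DEG, a class that held 4.77% of all tested genes. Tfpi2 and F8 were also the 2 members whose groups did not overlap, which was seen for 6.06% of all tested genes. The median log2 fold change was 0.22 over the 10 members and -0.01 over all tested genes. Without AVF male 2 and AVF female 2, 4 members passed (Tfpi2, Plat and F13a1 higher, F8 lower) against 7.92% of the tested genes.

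**Figure D1:**
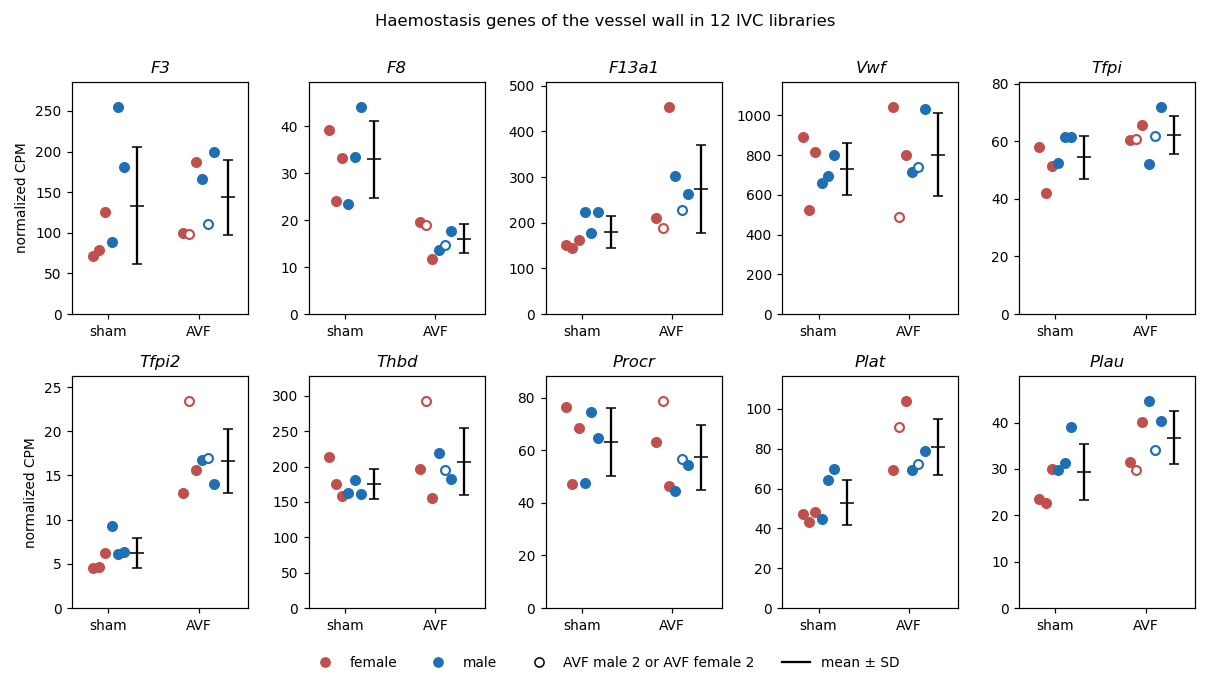
Normalized CPM of each member in the 12 IVC libraries, with 1 point per mouse (females in red, males in blue, AVF male 2 and AVF female 2 as open points) and the mean ± SD of 6 mice beside each group. The AVF and sham points of F8 and Tfpi2 do not overlap, whereas those of the other 8 members do.

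Among the procoagulant factors, F8 (ENSMUSG00000031196, GRCm39 chrX:74216321-74426221, minus strand, 26 exons in the canonical transcript) encodes factor VIII, the cofactor with which factor IXa activates factor X. The 6 sham libraries had 23.4 to 44.0 normalized CPM of F8 (median 33.3). The 6 AVF libraries had 11.8 to 19.6 (median 16.1). Every AVF library was below every sham library, as for 1.51% of all tested genes. The mean fell from 32.9 ± 8.14 to 16.0 ± 3.14 normalized CPM (SD, n = 6 each), which was 2.05-fold lower (log2 fold change -1.04 ± 0.18 SE, adjusted p = 0.00326 in edgeR's quasi-likelihood test). The values in AVF male 2 (14.6) and AVF female 2 (18.9) lay within the range of the other 4 AVF libraries, and F8 passed without these 2 libraries (log2 fold change -1.07, adjusted p = 0.0108 in edgeR) and with any single library left out. In RNA of a whole vein, fewer cells of a type and less RNA per cell cannot be told apart. The 12 endothelial markers examined, among them Pecam1, Cdh5 and Tek, had no passing gene in edgeR (0 at an unadjusted p under 0.05), and their summed level was 2206 to 3464 normalized CPM in sham and 2412 to 3245 in AVF libraries. Divided by that sum within each library, F8 was lower in every AVF library than in every sham library. After the mean of each operation was removed, F8 had r = 0.375 with that sum over the 12 libraries. Whether the cells that make F8 changed in number was not tested. The F8 locus overlaps Fundc2 on the other strand, and reads were counted by strand.

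F13a1 (ENSMUSG00000039109, chr13:37051152-37234277, minus strand) encodes the catalytic A subunit of the fibrin-crosslinking factor XIII, which macrophages and platelets carry. F13a1 was at 145 to 224 normalized CPM in the sham group (median 169.7) and at 189 to 454 in the AVF group (median 245). The highest value was in AVF female 3, and 4 of 6 AVF libraries were above all sham libraries. The log2 fold change of 0.60 ± 0.20 (SE) did not pass (adjusted p = 0.0658 in edgeR). Without AVF male 2 and AVF female 2 it was 0.78 ± 0.21 and passed (adjusted p = 0.0424 in edgeR), and it also passed when AVF female 1 or AVF female 2 alone was left out. The 8 macrophage markers rose in part, with 4 higher and none lower among those passing, and their summed level of 750 to 1411 normalized CPM in the AVF group lay above the 507 to 698 of the sham group in every library. F13a1 followed that sum across the 12 libraries after the mean of each operation was removed (Pearson r = 0.892, a description over libraries that share their scaling).

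The other procoagulant factors did not pass. Vwf (ENSMUSG00000001930, chr6:125523737-125663642, plus strand, 52 exons) encodes von Willebrand factor, which endothelium stores and releases, and which tethers platelets and carries factor VIII. Vwf was at 524 to 889.6 normalized CPM in the sham group and at 486 to 1041 in the AVF group, and the lowest value of all 12 was in AVF female 2. The means were 730.5 ± 131 and 803 ± 211 (SD, n = 6 each), with a log2 fold change of 0.14 and a 95% confidence interval from -0.26 to 0.53. Thus a decrease of Vwf of the size seen for F8 lay outside its interval. F3 (ENSMUSG00000028128, chr3:121516610-121528820, plus strand) encodes tissue factor, the cell-surface receptor of factor VIIa. F3 was at 71.1 to 255 normalized CPM in the sham group, the widest spread of the members relative to the mean in that group, and at 98.1 to 199 in the AVF group. Its log2 fold change was 0.11 with an interval from -0.59 to 0.80, which includes a 1.5-fold change in either direction. After the mean of each operation was removed, F3 followed the summed level of 6 fibroblast markers across the 12 libraries (r = 0.894). Of those markers, 4 were higher in the AVF group. F3 had r = -0.838 with the summed brown fat markers, and its cell source was not tested.

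**Figure D2:**
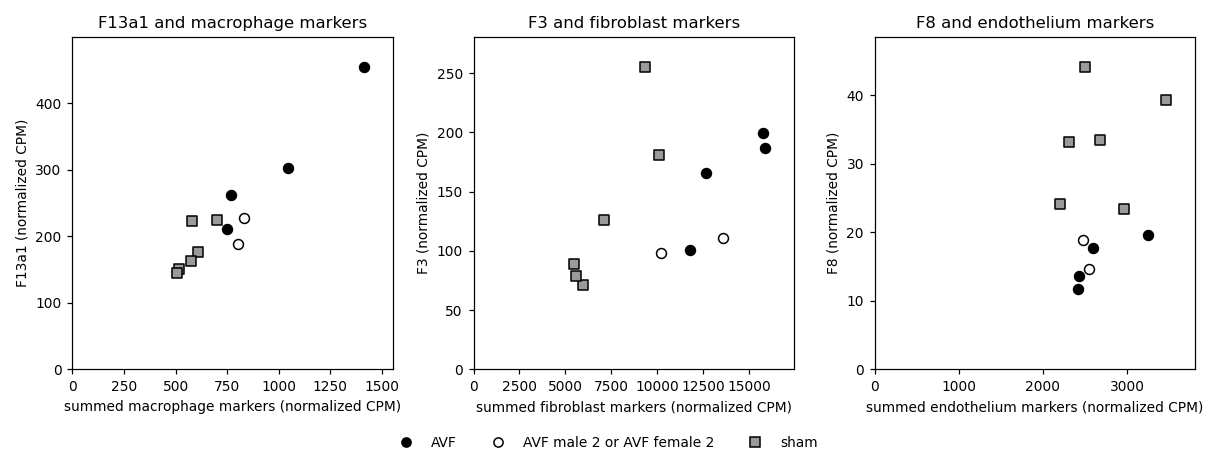
Normalized CPM of F13a1 against the summed level of 8 macrophage markers, of F3 against 6 fibroblast markers and of F8 against 12 endothelial markers, with 1 point per library (AVF as circles, AVF male 2 and AVF female 2 open, sham as squares). F13a1 and the macrophage sum rise together, whereas F8 separates the groups at overlapping endothelial sums.

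Among the anticoagulants, Tfpi2 (ENSMUSG00000029664, chr6:3962589-3988964, minus strand, 5 exons in the canonical transcript) encodes a Kunitz-type inhibitor of plasmin and other serine proteases that binds extracellular matrix. The sham libraries had 4.55 to 9.32 normalized CPM of Tfpi2 (median 6.18). The AVF libraries had 13.1 to 23.4 (median 16.2), with the highest value in AVF female 2. Every AVF library was above every sham library, as for 4.55% of all tested genes. The mean was 6.22 ± 1.73 in the sham group and 16.7 ± 3.64 in the AVF group (SD, n = 6 each), which was 2.68-fold higher (log2 fold change 1.42 ± 0.19 SE, adjusted p = 0.000782 in edgeR's quasi-likelihood test). Without AVF male 2 and AVF female 2 the log2 fold change was 1.26 ± 0.19 (adjusted p = 0.00358 in edgeR), and Tfpi2 passed with any single library left out. Divided by the summed endothelial markers within each library, Tfpi2 was also higher in every AVF library than in every sham library. With the operation means removed, Tfpi2 had r = -0.165 with that sum over the 12 libraries. Its r was 0.575 with the liver sinusoidal endothelial and 0.508 with the hepatocyte markers, which were highest in AVF female 2. The cell source of Tfpi2 was not tested. Tfpi2 was the member with the largest change in this comparison.

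The 3 other anticoagulants did not pass. Tfpi (ENSMUSG00000027082, chr2:84263195-84307164, minus strand) encodes tissue factor pathway inhibitor, which blocks factor Xa and the complex of tissue factor with factor VIIa. It was at 41.9 to 61.5 normalized CPM in the sham group and at 52.1 to 72.0 in the AVF group (log2 fold change 0.19, 95% confidence interval -0.03 to 0.42). Thbd (ENSMUSG00000074743, chr2:148216045-148250201, minus strand) encodes thrombomodulin, which binds thrombin and directs it to activate protein C. It was at 159 to 214 normalized CPM in the sham group and at 155 to 293 in the AVF group, and the highest value was again in AVF female 2. Its log2 fold change was 0.24 (interval -0.06 to 0.53) with all libraries and 0.10 (interval -0.16 to 0.37) without AVF male 2 and AVF female 2. Procr (ENSMUSG00000027611, chr2:155593031-155597397, plus strand) encodes the endothelial protein C receptor, which presents protein C to thrombomodulin-bound thrombin. It was at 47.1 to 76.5 normalized CPM in the sham group and at 44.7 to 78.8 in the AVF group (log2 fold change -0.14, interval -0.49 to 0.21). For these 3 genes the groups overlapped and the intervals excluded the 2.68-fold increase measured for Tfpi2.

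Between the plasminogen activators, Plat (ENSMUSG00000031538, chr8:23247709-23272871, plus strand, 14 exons in the canonical transcript) encodes tissue-type plasminogen activator, which works on fibrin and is released by endothelium. Plat was at 43.0 to 70.0 normalized CPM in the sham group (median 47.6) and at 69.2 to 104 in the AVF group (median 75.5). In the AVF group, 4 libraries were above all sham libraries, and the other 2 were just below Sham male 3, the highest sham library. The mean rose from 52.9 ± 11.4 to 80.8 ± 14.0 (SD, n = 6 each), a 1.53-fold change below the 2-fold set for a DEG (log2 fold change 0.61 ± 0.15 SE, adjusted p = 0.0197 in edgeR). It was 0.61 ± 0.16 without AVF male 2 and AVF female 2 (adjusted p = 0.0444 in edgeR), and the adjusted p was at most 0.0449 with any single library left out. After the operation means were removed, Plat had r = 0.714 with the summed fibroblast and 0.618 with the macrophage markers. It had r = -0.217 with the endothelial and -0.734 with the brown fat markers. The cell source of Plat was not tested. Plau (ENSMUSG00000021822, chr14:20886722-20893453, plus strand) encodes urokinase-type plasminogen activator, which acts on cell surfaces through its receptor. It was at 22.6 to 39.0 normalized CPM in the sham group and at 29.8 to 44.6 in the AVF group. Its log2 fold change was 0.32 ± 0.14 (SE, interval 0.01 to 0.63), and it did not pass over all tested genes (adjusted p = 0.142 in edgeR).

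Since a ratio within a library does not depend on scaling, counts of Plau were also divided by counts of Plat. The ratio was 0.486 to 0.668 in the sham group (median 0.541) and 0.328 to 0.645 in the AVF group (median 0.463). The groups overlapped, and the lowest ratio was in AVF female 2. The mean log2 ratio was lower by 0.287 in the AVF group, and this difference did not reach the threshold (exact two-sided permutation test over 924 splits, p = 0.0974, smallest possible p = 0.00216, n = 6 each). Leaving out AVF male 1, which had the highest ratio of the AVF group, gave a difference of -0.387 (exact permutation p = 0.0108). Leaving out AVF male 2 and AVF female 2 gave -0.181 (exact permutation p = 0.281).

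The 300 bases before the start of the canonical transcript were read from GRCm39 for the members, and those of the 2 members that rose are shown. Capitals mark every match on either strand to TATAAA (the TATA box), CACCC (letters bound by Krüppel-like factors), TGANTCA (AP-1) or CATTCC (TEAD factors). Tfpi2 is read from chr6:3968418-3968717, minus strand, which lies inside the annotated span of the gene (chr6:3962589-3988964), and Plat from chr8:23247409-23247708, plus strand.
Tfpi2: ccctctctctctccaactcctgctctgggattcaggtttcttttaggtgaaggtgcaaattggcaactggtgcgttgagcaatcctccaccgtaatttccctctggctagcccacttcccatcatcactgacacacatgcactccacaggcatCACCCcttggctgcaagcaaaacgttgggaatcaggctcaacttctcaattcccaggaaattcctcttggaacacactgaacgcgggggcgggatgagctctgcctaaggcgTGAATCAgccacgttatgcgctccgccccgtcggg
Plat: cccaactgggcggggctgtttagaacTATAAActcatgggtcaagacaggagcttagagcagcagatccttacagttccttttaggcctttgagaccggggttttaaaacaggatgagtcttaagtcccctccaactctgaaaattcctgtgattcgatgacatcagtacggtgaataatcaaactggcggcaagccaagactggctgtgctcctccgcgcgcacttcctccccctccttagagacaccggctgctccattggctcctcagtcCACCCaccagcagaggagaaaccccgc
The Tfpi2 window held 1 match to TGANTCA, starting 35 bases before the start site, and 1 to CACCC. The Plat window held 1 match to TATAAA, starting 274 bases before the start site, and 1 to CACCC. The F8 window (chrX:74425923-74426222, minus strand) held 3 matches to CACCC and none to the other letters. Over the 10 members, TGANTCA was found in 3 windows (F3, Procr and Tfpi2), TATAAA in 1, CACCC in 7 and CATTCC in none. Among 15886 such windows of tested genes the shares were 6.12%, 10.5%, 60.5% and 14.1% in that order. A match describes letters in the window and was not tested against the expression values.

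Levels were compared between genes after division by the merged exon length in kilobases. In the sham group Vwf (43.7 ± 7.85 normalized CPM per kilobase, SD, n = 6) and F3 (43.1 ± 23.2) were highest. Procr (30.9 ± 6.35), F13a1 (26.5 ± 5.14) and Thbd (24.0 ± 2.84) followed, and the ranges of neighbours overlapped throughout these 5. A gap without overlap separated them from Plau (11.4 ± 2.33), Tfpi (8.86 ± 1.22) and Plat (7.59 ± 1.63). Another gap separated these from Tfpi2 (3.38 ± 0.94) and F8 (3.32 ± 0.82), which were equal within their spread. In the AVF group the same 5 genes were highest, with F13a1 (40.3 ± 14.2) in the third place. Tfpi2 (9.06 ± 1.98) had joined the range of Tfpi (10.1 ± 1.07), and F8 (1.62 ± 0.32) was alone at the lowest level, without overlap with any other member. With the length of the longest transcript in place of merged exons, Vwf was at 82.7 and F3 at 61.0 in the sham group, F13a1 preceded Procr, and Tfpi and Plat preceded Plau.

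**Figure D3:**
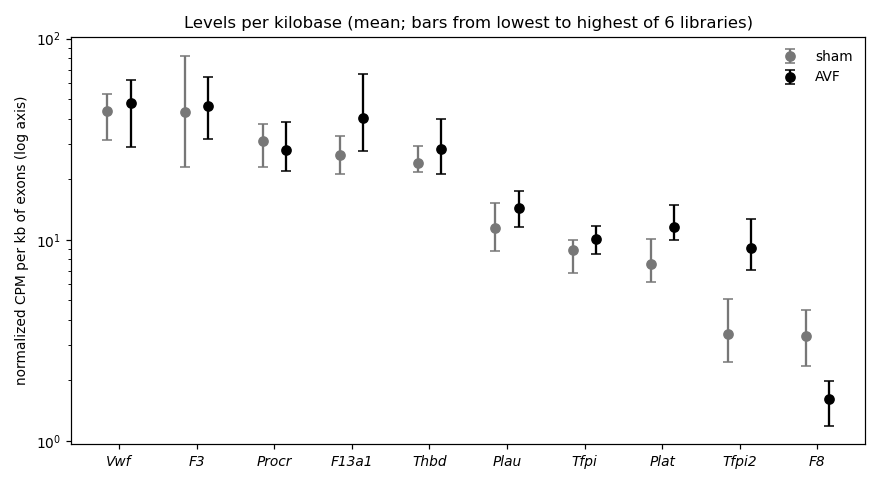
Mean normalized CPM per kilobase of merged exons for each member in the sham (grey) and AVF (black) groups on a log axis, with bars from the lowest to the highest of 6 libraries. Tfpi2 and F8 share a level of about 3.3 to 3.4 in the sham group and are at 9.06 and 1.62 in the AVF group.

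To compare the sexes, AVF and sham mice were tested within females and within males in a fit over all 4 groups. In females, 2 of 10 members passed (Tfpi2 and Plat), against 4.92% of all tested genes. In males, none passed in edgeR (2 at an unadjusted p under 0.05, F8 and Tfpi2), against 0.924% and 16.8% of all tested genes, and both passed in males in DESeq2. The log2 fold change of F8 was -0.94 in females (adjusted p = 0.0699 in edgeR and 0.0127 in DESeq2) and -1.13 in males (adjusted p = 0.0855 in edgeR and 0.00393 in DESeq2). Its levels were 32.2 ± 7.61 in sham and 16.8 ± 4.33 in AVF females, and 33.6 ± 10.3 in sham and 15.3 ± 2.09 in AVF males (normalized CPM, SD, n = 3 each). Tfpi2 had a log2 fold change of 1.76 ± 0.25 (SE) in females (adjusted p = 0.00538 in edgeR) and 1.13 ± 0.24 in males (adjusted p = 0.0641 in edgeR).

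Plat was at 46.1 ± 2.73 normalized CPM in sham females and 88.1 ± 17.4 in AVF females (log2 fold change 0.94 ± 0.18 SE, adjusted p = 0.0188 in edgeR). In males it was at 59.7 ± 13.3 in sham and 73.4 ± 4.82 in AVF mice (log2 fold change 0.30 ± 0.18 SE, adjusted p = 0.421 in edgeR). The call in females was lost without AVF female 3 (adjusted p = 0.0804 in edgeR) or without Sham female 2 (adjusted p = 0.0878 in edgeR). The difference between the sexes in the change of Plat, tested as an interaction, was 0.64 on the log2 scale (interval 0.08 to 1.19, unadjusted p = 0.0281 in edgeR) and did not pass over all genes (adjusted p = 0.931 in edgeR). No member passed for the interaction in edgeR or DESeq2, and Plat was the only member with an unadjusted p under 0.05. Over all tested genes, 5.11% had an unadjusted p under 0.05 for the interaction and 0% passed in edgeR.

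Between female and male mice of the same operation, no member passed in edgeR or DESeq2, against 0.0314% of all tested genes in AVF mice and 0.0566% in sham mice. In the AVF group no member had an unadjusted p under 0.05, against 4.73% of all tested genes. In the sham group F3 and Plau did, against 9.41% of all tested genes. F3 was at 92.1 ± 29.8 normalized CPM in sham females and 175 ± 83.0 in sham males (log2 fold change -0.93, interval -1.81 to -0.05, adjusted p = 0.514 in edgeR). Plau was at 25.3 ± 4.04 and 33.4 ± 4.93 (log2 fold change -0.40, interval -0.77 to -0.03, adjusted p = 0.508 in edgeR). With 3 mice in a group these intervals were wide. Summed brown fat markers were at 420 to 1437 normalized CPM in sham females and 90.9 to 786 in sham males. Summed fibroblast markers were at 5547 to 7124 and 5482 to 10096. With the operation means removed, r with the brown fat and fibroblast sums was -0.838 and 0.894 for F3, -0.579 and 0.760 for Plau, and -0.734 and 0.714 for Plat. Whether tissue content contributed to these sex differences or to the interaction of Plat was not tested.

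**Figure D4:**
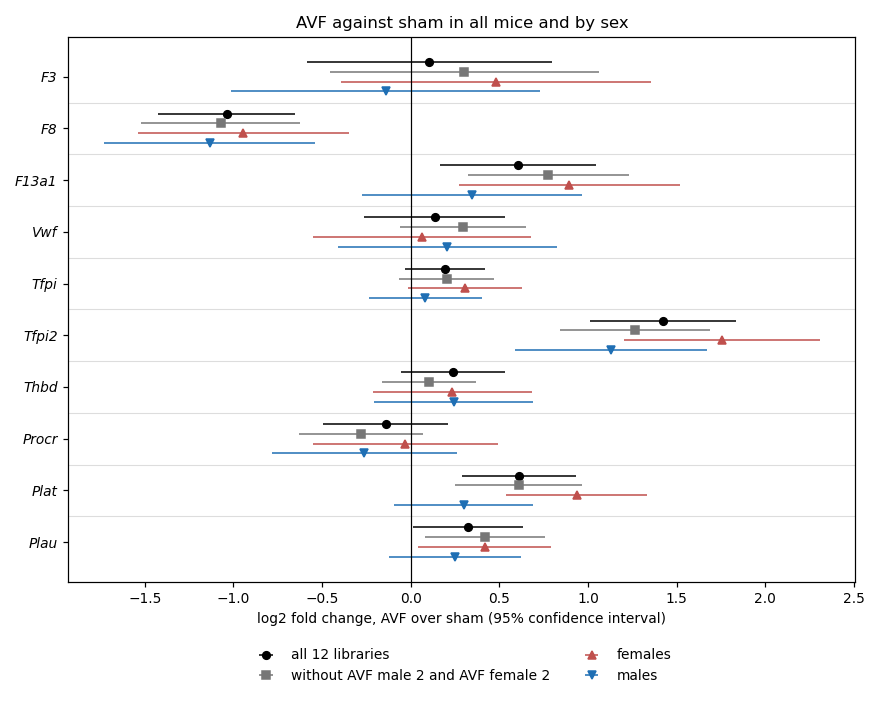
Log2 fold change of each member, AVF over sham, with its 95% confidence interval from edgeR over all 12 libraries (black), without AVF male 2 and AVF female 2 (grey), in females (red) and in males (blue). F8 lies below 0 and Tfpi2 above 0 in all 4, whereas the intervals of Plat in males and of F3, Vwf, Tfpi, Thbd and Procr include 0 in every fit shown.

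Cell type markers moved with the operation in part. Besides the macrophage markers, 4 of 6 fibroblast markers were higher in the AVF group. The summed level of the 6 was 10224 to 15847 normalized CPM in the AVF group, above the 5482 to 10096 of the sham group in every library. The matrix gene Col1a1 was the largest part of this sum, with means of 8287 in the AVF and 3284 in the sham group. Pdgfra and Dcn overlapped between the groups (ratios of means 1.03 and 1.09). Whether fibroblasts changed in number was not tested. None of 6 smooth muscle markers (0 at an unadjusted p under 0.05) and none of 6 platelet markers (2 at an unadjusted p under 0.05) passed in edgeR. An unadjusted p under 0.05 was common in this comparison. Plau, with an unadjusted p of 0.0419 in edgeR, ranked 4688 of 15912 tested genes. The summed platelet markers, which bear on Vwf and F13a1, were at 40.8 to 211 normalized CPM in sham and 18.4 to 69.9 in AVF libraries. Brown fat markers were lower in the AVF group in 3 of 5. No mesothelium, neutrophil, erythroid, white fat, sympathetic neuron, Schwann cell or T cell marker passed in edgeR, although 4 of 4 sympathetic neuron and 3 of 3 Schwann cell markers had an unadjusted p under 0.05, with median log2 fold changes of -1.09 and -0.80. All 6 hepatocyte markers and 2 of 3 liver sinusoidal endothelial markers were higher, which followed AVF male 2 and AVF female 2. At least Ttr, Fabp1 and Clec4g of these lists met the expression filter only through high AVF libraries. Their medians in the AVF group were 0.167, 0.099 and 0.301 normalized CPM, and their highest sham values were 0.212, 0.127 and 0.189. Testing these markers thus already required high values in the AVF group. With the mean log2 level of the macrophage markers as a covariate, none of the 3 members kept its call (adjusted p = 0.358 for F8, 0.181 for Tfpi2 and 0.790 for Plat in edgeR), and 2 genes of all tested passed. The log2 fold changes were then -0.74 for F8, 1.28 for Tfpi2 and 0.19 for Plat, and those of F3, F13a1, Procr and Plau changed sign. The macrophage level separated the AVF and sham libraries as fully as the operation did, so the parts of the operation and of the macrophage content cannot be told apart with this covariate.

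Members also varied together among mice of the same operation. After removal of the operation means, F8 and Procr had r = 0.809 over the 12 libraries, F3 and Plau 0.804, F13a1 and Plau 0.730, and F13a1 and Thbd -0.690. These values are descriptions over libraries that share scaling and cell content. Among all tested genes, those most like F8 by this measure were H2-T10 (r = 0.945), Tlr11 and B130055M24Rik. Those most like Tfpi2 were Gemin2 (0.921), Ggact and Bola1, and those most like Plat were Rbbp8 (0.946), Prr11 and Ofd1. For F13a1 they were Marchf1 (0.961), Zfp330 and Commd10, for Plau Rbpj (0.952), Ddx60 and Rp2, and for F3 Rcn2 (0.956), Rbbp7 and Pias3. For Vwf they were Virma (0.901), Rusc2 and Dchs1, for Tfpi Pmaip1 (0.927), Pofut3 and Postn, for Thbd Gbp8 (0.929), Ccni and Dnajb9, and for Procr Hoxa11 (0.941), Homer2 and Car8. Each was picked as the highest of many correlations, which inflates it, and none was tested.

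The members were set beside 38 other genes that act on the same pathways, of which 35 were tested. In the AVF group, 14 of the 35 were higher and 1 was lower, against 13.8% of all tested genes passing in either direction. This count included 4 genes of plasma proteins made by the liver, whose highest values were in AVF male 2 and AVF female 2. These 4 met the expression filter only through these 2 libraries, so testing them already required high values in the AVF group. Plg (plasminogen) was at 71.0 and 229.9 normalized CPM in these 2 libraries and at most 0.26 in the other 10. Serpinc1 (antithrombin) was at 37.2 and 122 and at most 1.29 elsewhere, Proc (protein C) at 5.41 and 12.9, and Serpinf2 (alpha-2 antiplasmin) at 14.0 and 38.0. Without the 2 libraries, 8 of 28 tested genes passed, 7 higher and 1 lower, against 7.92% of all tested genes.

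Among the inhibitors of fibrinolysis, which oppose Plat and Plau, 2 of 4 tested genes were higher and none was lower, and neither of the 2 still tested without the 2 libraries passed in edgeR (1 at an unadjusted p under 0.05). Serpine2, which encodes protease nexin-1, an inhibitor of thrombin and urokinase, was at 31.0 to 88.8 normalized CPM in the sham group and at 88.6 to 167 in the AVF group, and 5 of 6 AVF libraries were above all sham libraries. Its log2 fold change was 1.01 (adjusted p = 0.0308 in edgeR), and 0.92 without the 2 libraries, where the call was lost (adjusted p = 0.0788 in edgeR). The call was also lost with any one of AVF male 2, AVF male 3, Sham male 1, Sham female 1, Sham female 2 or Sham female 3 left out (adjusted p = 0.0508 to 0.0587 in edgeR). The other gene that passed was Serpinf2, which met the expression filter only through AVF male 2 and AVF female 2.

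Of the 3 thrombin receptors tested, F2r, which encodes PAR1, rose. It was at 25.3 to 43.0 normalized CPM in the sham group and at 72.8 to 151 in the AVF group without overlap (log2 fold change 1.56 ± 0.18 SE, adjusted p = 0.000310 in edgeR), and at 1.56 without the 2 libraries (adjusted p = 0.00163 in edgeR). F2rl1 and F2rl2 did not pass. Of 6 plasmin receptor and assembly genes, 3 were higher and none lower. These were Anxa2, a cell-surface docking site of Plat and plasminogen (log2 fold change 0.53, adjusted p = 0.00392 in edgeR), Lrp1, a receptor that clears complexes of activators and inhibitors (0.61, adjusted p = 0.0224 in edgeR), and Plg. Plg met the expression filter only through the 2 libraries. The urokinase receptor Plaur was at a log2 fold change of 0.38 and did not pass (adjusted p = 0.235 in edgeR).

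For handling of von Willebrand factor and factor VIII, 2 of 6 tested genes were higher and 1 was lower. Lman1, a transport receptor that carries factor VIII out of the endoplasmic reticulum, was at 100.3 to 115 normalized CPM in the sham group and at 132 to 148 in the AVF group, without overlap (log2 fold change 0.40 ± 0.06 SE, adjusted p = 0.00143 in edgeR). Lman1 rose in the libraries in which F8 fell. Its partner Mcfd2 was at 0.28 and did not pass (adjusted p = 0.0812 in edgeR). Cd63, a membrane protein of the granules that store von Willebrand factor, rose by 0.53 on the log2 scale (adjusted p = 0.0214 in edgeR), and Angpt2, which is stored in the same granules, was lower (log2 fold change -0.55, adjusted p = 0.0205 in edgeR). Selp, the P-selectin of these granules, was at -0.26 and did not pass (adjusted p = 0.448 in edgeR). Cd63, Lman1 and Angpt2 passed without the 2 libraries also.

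In the protein C and antithrombin pathway, the 2 of 6 genes that passed were Proc and Serpinc1, and none passed without the 2 libraries. Proc and Serpinc1 met the expression filter only through these 2 libraries. Serpind1 (heparin cofactor II) was at 3.64 with all libraries and at -0.99 without the 2, and passed in neither. Pros1 (protein S) was at 0.17 and Gas6 at 0.23, and neither passed. For crosslinking and the vitamin K cycle, 2 of 4 tested genes were higher, Ggcx (0.45, adjusted p = 0.0158 in edgeR) and Vkorc1 (0.43, adjusted p = 0.0305 in edgeR), which encode the enzymes that carboxylate clotting factors and recycle vitamin K. Both calls were lost under the exact test of edgeR (adjusted p = 0.0719 and 0.0739). Without the 2 libraries the log2 fold change of Vkorc1 was 0.41 and its call was lost (adjusted p = 0.0850 in edgeR), as it was with any one of AVF male 2, AVF female 3, Sham male 1, Sham female 1, Sham female 2 or Sham female 3 left out (adjusted p = 0.0517 to 0.0647 in edgeR). Tgm2, a tissue transglutaminase that crosslinks like factor XIII, was at -0.49 and did not pass (adjusted p = 0.0629 in edgeR).

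Of 6 platelet-inhibiting and shear-related genes, 2 were higher and none was lower. Entpd1, which encodes CD39, an enzyme that removes the platelet agonist ADP, rose by 0.68 on the log2 scale (adjusted p = 0.00354 in edgeR, and 0.0122 without the 2 libraries). Ptgis, which encodes prostacyclin synthase, rose by 0.76 (adjusted p = 0.0152 in edgeR), and its log2 fold change was 0.69 without the 2 libraries, where the call was lost (adjusted p = 0.0581 in edgeR). Klf2, a flow-induced transcription factor of endothelium that induces Thbd, was at 0.00 with an interval from -0.71 to 0.71, and Klf4 was at 0.09. Nos3 was at -0.18. None of these 3 passed.

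**Figure D5:**
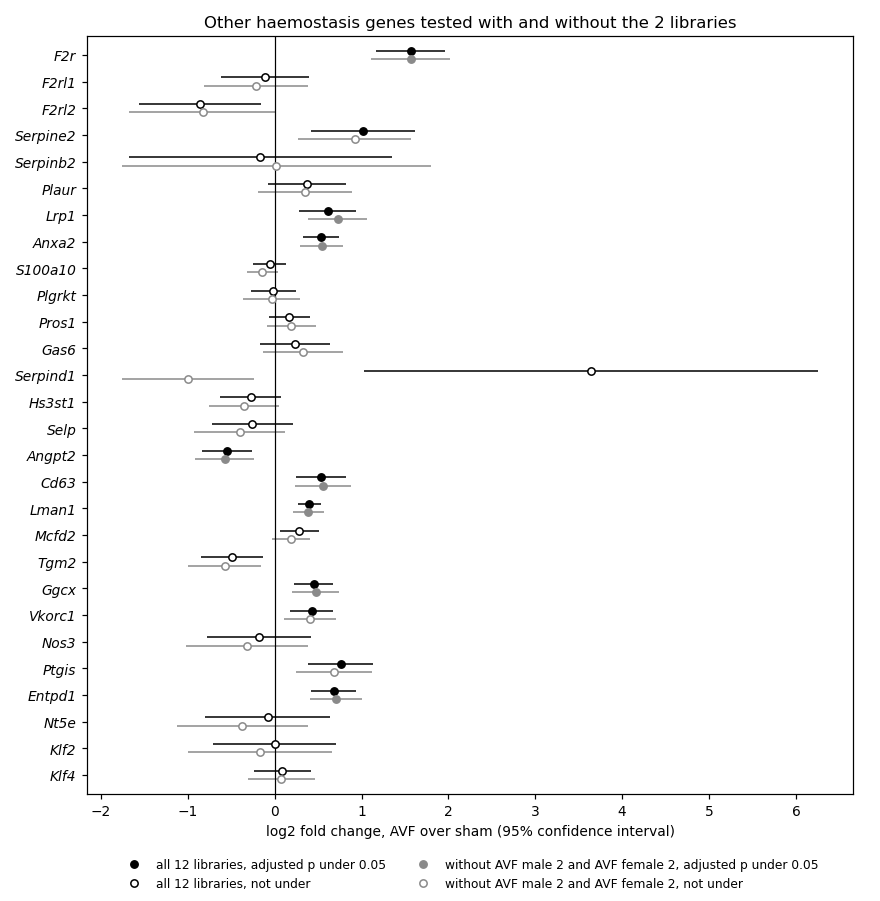
Log2 fold change, AVF over sham, with its 95% confidence interval for the 28 other haemostasis genes tested both with all 12 libraries (black) and without AVF male 2 and AVF female 2 (grey), where filled points had an adjusted p under 0.05. F2r lies highest of the filled points in both fits, and Serpind1, an open point in both, changes sign between them.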

How the data were processed

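Libraries of the IVC from 12 mice were used (6 AVF, 6 sham, 3 of each sex in both). The authors deposited expected counts per gene from RSEM 1.3.3, counted by strand without normalization, after read cleaning (PRINSEQ, Trimmomatic 0.39) and STAR 2.7.7a alignment on GRCm39. Names and coordinates came from GENCODE M39, also on GRCm39.

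Expected counts were rounded, scaled by TMM and tested with the quasi-likelihood test of edgeR 4.0.16 (R 4.3.3) on genes above 1 CPM in at least 2 libraries, with p values adjusted by the Benjamini-Hochberg procedure over all of them. An adjusted p under 0.05 passed, and a DEG also needed a fold change of 2, or 1.5 between the sexes. Correlations used log2 of normalized CPM plus 0.5. DESeq2 1.42.0, the exact test of edgeR, other filters and scalings, marker covariates, a replicate block and each library left out were alternatives.

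The members and lists were chosen with earlier results of these data known. All 10 members, and in each list of other genes at most 4 passing genes by adjusted p, were named. Serpind1, Mcfd2, Selp, Plaur, Tgm2, Pros1, Gas6, F2rl1, F2rl2, Klf2, Klf4 and Nos3 of the same lists were named after their values were seen. Windows before start sites came from GRCm39 in place of a table on another build. The fits were tested on simulated counts. Total counts were 15177881 to 22717423 per library, and 3 counts were the least taken as detected. Protein sequences were not used here, and 1 gene of the other lists is not reported here.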

Additional observations from a re-analysis of the deposited data

Results flagged for a closer look

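No member had a sample far from the other 5 of its operation group. Among the other genes that passed and the ratio of Plau to Plat, 6 of 52 groups of 6 libraries, members included, had a highest library whose gap to the next exceeded Dixon's 95% critical share of the range, and chance gives about 1 in 20. In AVF female 2, Plg was at 229.9 normalized CPM (next 71.0), Serpinc1 at 122 (next 37.2) and Serpinf2 at 38.0 (next 14.0). In the same library Alb was at 5594, and the next library in each case was AVF male 2. Entpd1 was at 246 in AVF female 1 (next 226), the library with 46.0% ribosomal RNA. Ggcx was at 25.6 in Sham male 3 (next 21.7). Proc was at 0.0848 in Sham female 2 and at 0 in the other sham libraries, which is under 3 counts.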

How the results depend on the processing

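The calls of F8, Tfpi2 and Plat held under the exact test, DESeq2, other scalings and filters, removal of ribosomal RNA genes, and sex, endothelial or hepatocyte covariates, and without any single library. The macrophage covariate ended all 3 (members passing 0, genes 2, DEG 1, other haemostasis genes 0) and reversed F3 (-0.72), F13a1 (-0.31), Procr (0.16) and Plau (-0.12) (macrophage levels and operation separated the libraries alike). F13a1 passed with DESeq2 (adjusted p = 0.0220) and the exact test of edgeR (adjusted p = 0.0357). DESeq2 called more genes (3402 in all mice, 2026 in females, 888 in males, 4 for the interaction, and between the sexes 49 in AVF and 174 in sham) and more members (4 in females, 2 in males). Without AVF male 2 and AVF female 2, 1230 genes (471 DEG, 8 other haemostasis genes) passed in all mice and 74 in males, and the interaction of F8 was -0.0023. With the hepatocyte covariate 1448 genes passed, and Serpinf2 (-3.27), Plg (-0.34) and Proc (-0.33) reversed. With no low-count filter, 18 genes differed between the sexes in sham. The causes of the shifts under DESeq2 and the filter were not tested.

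With each library left out in turn, 1330 to 2546 genes (470 to 1023 DEG) passed, 3 to 4 members and 9 to 17 other haemostasis genes. The count of genes moved by over 1.5 times without Sham female 2 (1330), AVF male 2 (1369), Sham male 1 (1452) or Sham female 3 (1450), and that of other genes without AVF male 2 or Sham female 2 (9 each). The ranges were 160 to 1376 genes and 1 to 3 members in females, 7 to 262 and 0 to 1 in males, 0 to 0 for the interaction, and between the sexes 5 to 8 in AVF and 8 to 23 in sham. In females the gene count was lowest without Sham female 2 and highest without AVF female 2, only Tfpi2 passed without AVF female 3 or Sham female 2, and leaving out AVF male 2, AVF female 3, Sham male 2, Sham male 3, Sham female 1 or Sham female 3 also moved it by over 1.5 times. In males it was lowest without Sham male 2 and highest without AVF female 2, leaving out any other male also moved it so, and Tfpi2 passed without AVF female 1 or AVF female 2. In sham, sex differences moved so without AVF female 2, AVF female 3, Sham male 1 or Sham female 2, and in AVF without AVF female 2. The log2 fold change of F3 was -0.024 to 0.397, and the interaction of F8 -0.082 to 0.394. The ratio of Plau to Plat differed by -0.387 to -0.191 on the log2 scale.

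The labels do not say whether replicate numbers pair the mice, and the libraries did not settle it. Correlations of same-numbered libraries were -0.20 to 0.27, over 0.1 in 3 of 6 pairs. Their mean was 0.106, against -0.020 for other pairs, and 3 AVF libraries correlated best with their own number. With the replicate number as a block, 1980 genes and 3 members passed, and the calls of Serpinf2 and Serpinc1 were lost. The ratio of Plau to Plat, at -0.287, then had an exact sign-change p of 0.03125. That is the smallest p this test can give with 6 pairs, as the ratio was lower in the AVF library of every pair.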
